A study of Mus musculus with 15 samples.

Results

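The 9 genes described here encode enzymes that crosslink, mature or cut the extracellular matrix, a protein that aids the maturation, and a protein that restrains the cutting. They are Lox, Loxl1, Loxl2 and Loxl3 of the lysyl oxidase family, Adamts2 and Pcolce of procollagen maturation, the metalloproteinases Mmp2 and Mmp14, and the metalloproteinase inhibitor Timp1. They were taken by name from the 15258 genes in the files, and all 9 passed the filter on low reads that kept 11018 genes for testing. RNA came from the left ventricle of male C57BL/6NRj mice and was read by BRB-seq, which tags the 3′ ends of transcripts with a sample barcode so that many samples are sequenced in one pool. The 3 groups held 5 libraries each. TAC NRG mice had transverse aortic constriction, a surgical narrowing that makes the left ventricle pump against higher pressure, and minipumps that delivered neuregulin-1 (NRG1), a growth factor for receptors of the ERBB family on heart muscle cells. TAC saline mice had the same surgery with saline in the pump, and sham saline mice had the sham operation with saline. Constriction was compared with sham surgery under saline, and NRG1 with saline under constriction only, because no sham group received NRG1. The labels used here do not give the age of the mice, the dose of NRG1 or the time after surgery. Nor do they say whether the libraries are from different mice, so p-values measure the spread between these libraries, which may be technical.

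Collagen and elastin are secreted as single molecules and gain their strength outside the cell. Lysyl oxidases oxidise lysine side chains so that neighbouring collagen or elastin molecules become covalently linked, which stiffens the matrix and makes it harder to remove. ADAMTS2 removes the amino-terminal propeptide of procollagen, while PCOLCE increases the activity of the BMP1-type proteases that remove the carboxy-terminal propeptide. MMP14 is a membrane-bound collagenase that also activates secreted MMP2, and TIMP1 binds and blocks many metalloproteinases, although it is a weak inhibitor of MMP14. In the heart, cardiac fibroblasts are the main source of fibrillar collagen, and pressure overload is known for the fibrosis that follows it.

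Levels are given as CPM, reads of the 3′ end per M reads on the authors' scale. Depth was 2.02 to 5.62 M reads per library. TAC NRG libraries 4 and 5 were the shallowest, with 2.02 and 2.13 M reads, and lay at 32.4 and 35.9 on the second principal component of all tested genes, where the other libraries lay between -17.5 and 3.30. The summed level of 6 cardiomyocyte markers was 45521 to 52159 CPM in TAC NRG, 43971 to 50536 CPM in TAC saline and 45092 to 49475 CPM in sham saline libraries, high in all of them. A gene is said to have risen or fallen where limma's two-sided adjusted p was under 0.05 over all tested genes.

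Upstream sequence was available for 4 of the 9 genes in the RefSeq table of build GRCm38.p6, which is not the GRCm39 build of the files. The 250 bases before the annotated start are shown for Timp1, whose level changed most of the 9, and for Mmp14, which was not called in any comparison. They lie at chrX:20869916-20870165 and chr14:54431348-54431597, each on the plus strand. Capitals mark exact matches on either strand to the letters searched.
Timp1: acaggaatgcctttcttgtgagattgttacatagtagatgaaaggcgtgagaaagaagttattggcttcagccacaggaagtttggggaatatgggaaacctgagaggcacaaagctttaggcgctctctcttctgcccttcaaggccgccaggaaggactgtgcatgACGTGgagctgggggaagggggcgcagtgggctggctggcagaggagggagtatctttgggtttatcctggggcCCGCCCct
Mmp14: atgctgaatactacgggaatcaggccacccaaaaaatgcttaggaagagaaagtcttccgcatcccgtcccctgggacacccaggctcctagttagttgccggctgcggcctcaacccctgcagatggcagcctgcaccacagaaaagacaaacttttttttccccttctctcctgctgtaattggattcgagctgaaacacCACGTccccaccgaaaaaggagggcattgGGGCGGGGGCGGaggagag
The AP-1 motif was searched as TGANTCA, the SMAD element as CAGAC, the core of the hypoxia response element as ACGTG and the SP1 box as GGGCGG. The TATA box was searched as TATAAA and the cyclic AMP response element as TGACGTCA. The ACGTG core lay 82 to 78 bases before the start in Timp1, and 48 to 44 bases before it, on the minus strand, in Mmp14. It occurred in 16.6% of 27025 promoter windows of the same length. Timp1 held 1 GGGCGG match, on the minus strand 8 to 3 bases before the start, and Mmp14 held 2 side by side. That motif was present in 32.9% of windows. The AP-1 letters (6.87% of windows), the SMAD letters (42.1%), the TATA box (13.0%) and the cyclic AMP element (1.62%) had no match in these 4 windows, and no matches of different motifs overlapped. The Adamts2 window held 5 GGGCGG matches and was 78.0% G or C, and the Pcolce window held 1 and was 58.8% G or C, against a median of 52.0% over all windows.

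Constriction raised 7 of the 9 genes and lowered 0 of them (TAC saline against sham saline), while 6.47% of all tested genes rose, 4.24% fell and 10.7% were called in either direction. In 6 of the 9 the lowest TAC saline library lay above the highest sham saline library, a separation seen upward in 4.72% of tested genes. The median log2 fold change of the 9 was 0.99, and that of all tested genes was -0.01. Loxl3 and Mmp14 did not pass the test, although their means were also higher. Mitochondrially encoded transcripts were 23.7 to 29.0% of reads in TAC NRG, 26.0 to 29.6% in TAC saline and 30.5 to 31.8% in sham saline libraries, and TAC saline 3, the lowest of its group in 8 of the 9 genes, had the highest share of that group. With nuclear reads as the only scaling, 7 of the 9 rose and the median of the 9 was 1.03. The part of the mitochondrial share in the result was not otherwise tested. Fewer cells of a type and less RNA per cell cannot be told apart in tissue RNA of this kind.

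Of the lysyl oxidases, Lox, Loxl2 and Loxl1 rose with constriction, and Lox had the greatest change. Lox, the founding lysyl oxidase, was at 15.2, 9.62, 6.41, 18.7 and 22.0 CPM in the TAC saline libraries, against 3.00, 3.30, 4.94, 2.59 and 4.04 CPM in the sham saline libraries. Every TAC saline library was above every sham library, although sham values rested on only 8 to 15 reads each. Its log2 fold change was 1.91 ± 0.34 (SE), a 3.76-fold rise with a 95% interval of 2.32 to 6.08 (limma adjusted p = 0.000618). Loxl2, which acts on collagens including the collagen IV of basement membranes, was at 16.0, 11.6, 8.83, 15.9 and 19.1 CPM in TAC saline libraries and at 4.78, 4.62, 3.99, 7.17 and 6.43 CPM in sham saline libraries. These groups did not overlap either, and Loxl2 rose 2.62-fold (log2 1.39 ± 0.25, limma adjusted p = 0.000662). Loxl1, the family member known for crosslinking elastin, was at 77.6, 67.1, 60.1, 98.5 and 91.5 CPM in TAC saline libraries and at 39.7, 39.2, 34.6, 44.1 and 40.2 CPM in sham saline libraries. Sham libraries were tightly grouped for this gene, and it rose 1.97-fold (log2 0.98 ± 0.13, limma adjusted p = 3.72e-05).

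Loxl3, a lysyl oxidase with roles in palate and spine development in mice, was at 4.19, 5.37, 2.60, 9.77 and 6.61 CPM in TAC saline libraries and at 2.11, 2.51, 3.03, 1.68 and 4.04 CPM in sham saline libraries. TAC saline library 3 lay inside the sham range, so the groups overlapped. The log2 difference of 1.02 ± 0.36 did not pass the threshold (limma adjusted p = 0.0693), and sham values rested on 5 to 13 reads. The estimate was past the threshold under 7 of 27 alternatives, with adjusted p between 0.0178 and 0.204 over all 27 in limma. The 3′ end of Loxl3 lies within the span of Htra2 on the opposite strand in the GENCODE vM21 annotation, and whether reads were counted by strand is not given in the sources used here, so reads of this pair cannot be told apart with certainty. Htra2, a mitochondrial protease, was at 16.1 ± 1.79 CPM in TAC NRG, 17.1 ± 1.13 CPM in TAC saline and 18.1 ± 1.46 CPM in sham saline libraries (SD, n = 5 each), with overlapping ranges. The part of its reads in the Loxl3 values was not tested. Loxl4, the remaining lysyl oxidase gene, summed to 8 reads in TAC NRG, 8 reads in TAC saline and 2 reads in sham saline libraries and was not tested.

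The procollagen maturation genes Adamts2 and Pcolce rose about as much as Loxl1. Adamts2 was at 40.6, 32.9, 17.5, 44.6 and 43.9 CPM in TAC saline libraries and at 16.8, 17.5, 14.5, 16.9 and 20.5 CPM in sham saline libraries. TAC saline 3 was at the level of the sham libraries and the other 4 were well above them. Adamts2 rose 1.99-fold (log2 0.99 ± 0.21, limma adjusted p = 0.00383), and leaving out TAC saline 3 gave a log2 change of 1.23. Pcolce was at 110.3, 81.6, 75.0, 108.4 and 131 CPM in TAC saline libraries and at 44.8, 59.2, 38.8, 61.2 and 51.3 CPM in sham saline libraries. The groups were separate, and Pcolce rose 1.97-fold (log2 0.98 ± 0.15, limma adjusted p = 0.000136). The protease that PCOLCE enhances, Bmp1, rose with constriction as well, with 31.7 ± 3.17 CPM in TAC saline and 18.9 ± 2.30 CPM in sham saline libraries (SD, n = 5 each, log2 0.75, limma adjusted p = 0.000216). It was the only 1 called of 3 tested related genes of propeptide processing, while 6.47% of all tested genes rose. The others were Pcolce2 (log2 0.02, limma adjusted p = 0.966) and Furin (log2 -0.27, limma adjusted p = 0.225).

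Of the metalloproteinases, Mmp2 rose and Mmp14 did not pass the test. Mmp2, a gelatinase that cuts denatured collagen and basement membrane collagen, was at 47.0, 53.4, 50.4, 79.7 and 58.1 CPM in TAC saline libraries and at 35.9, 35.7, 33.7, 42.6 and 43.2 CPM in sham saline libraries. The lowest TAC saline library was above the highest sham library, and TAC saline 4 stood above the rest of its group. Mmp2 rose 1.49-fold (log2 0.58 ± 0.12, limma adjusted p = 0.0028), the smallest rise of the 7 genes called. Mmp14, which activates MMP2 at the cell surface, was at 23.3, 13.1, 12.3, 22.6 and 17.9 CPM in TAC saline libraries and at 10.6, 9.63, 7.18, 9.61 and 14.2 CPM in sham saline libraries. Sham library 5 reached into the TAC saline range. The log2 difference of 0.79 ± 0.36 had a 95% interval of 0.04 to 1.54 and did not pass the threshold (limma adjusted p = 0.181). In a fit with these 2 groups alone the same difference did pass (limma adjusted p = 0.0102), and likewise in a fit without TAC NRG 4 and 5 (limma adjusted p = 0.0148), as the shared estimate of error otherwise includes the TAC NRG libraries, where Mmp14 spanned 4.41 to 29.4 CPM.

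Timp1 showed the greatest change of the 9 genes. It was at 36.0, 21.1, 11.9, 51.1 and 59.5 CPM in TAC saline libraries, against 5.23, 4.09, 3.35, 4.73 and 3.74 CPM in sham saline libraries. Sham libraries were close together, although their values rested on only 10 to 23 reads each. TAC saline libraries spanned 11.9 to 59.5 CPM and were all above them. The rise was 7.38-fold with a 95% interval of 4.16 to 13.1 (log2 2.88 ± 0.40, limma adjusted p = 4.96e-05), and it ranked 8 of 11018 genes by log2 fold change. Lox ranked 50, Loxl2 103, and Mmp2 736 on the same scale. The 3′ end of Timp1 lies within the span of Syn1, a neuronal gene, on the opposite strand. Syn1 was at 0.83 ± 0.47 CPM in TAC saline and 0.72 ± 0.53 CPM in sham saline libraries (SD, n = 5 each). Its highest sham library was at 1.35 CPM, where Timp1 was at 3.35 to 5.23 CPM over the sham libraries. As for Loxl3, reads of this pair cannot be told apart with certainty, and their part was not tested.

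**Figure D1:**
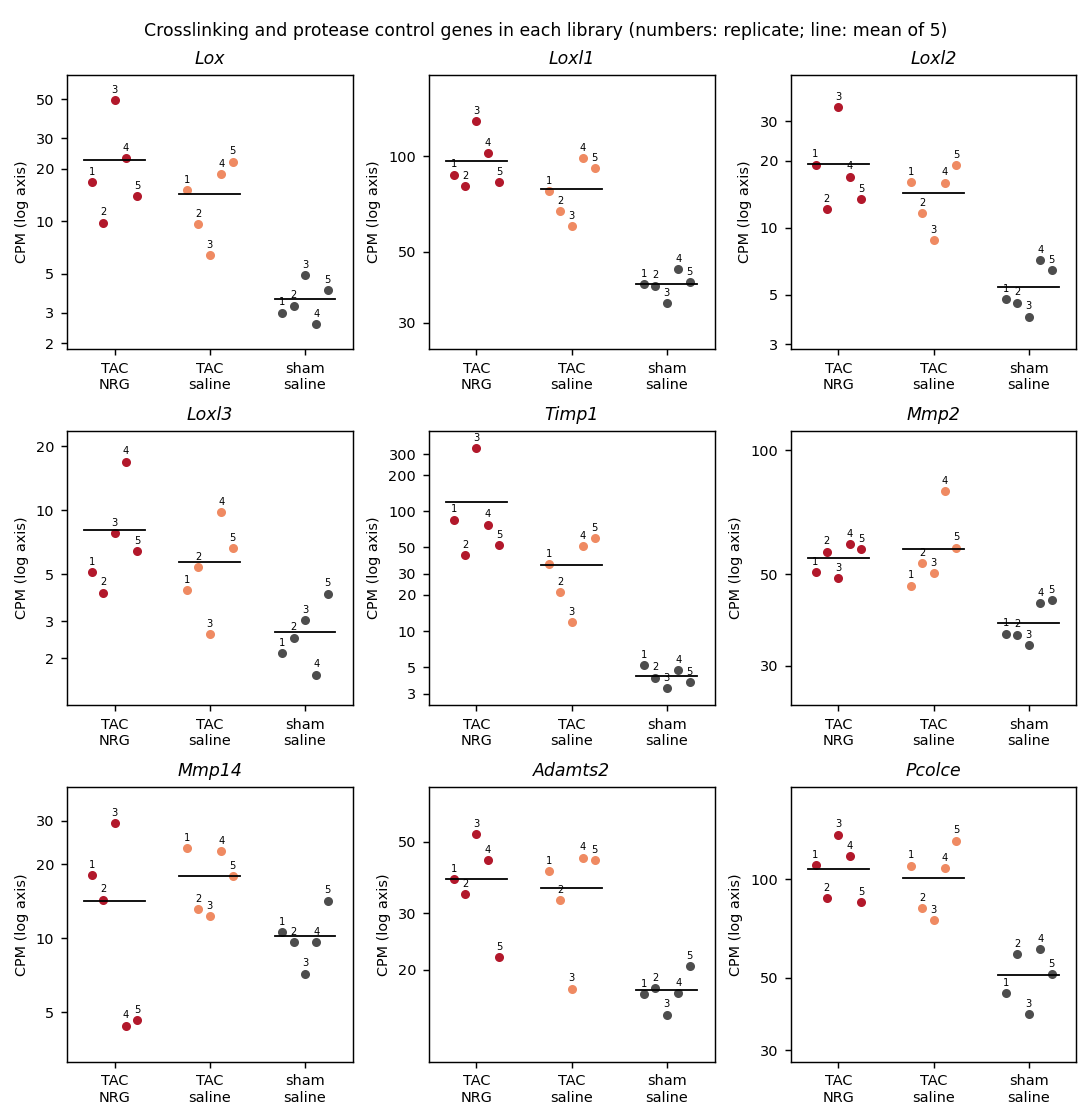
Level of each gene in every library in CPM on a logarithmic axis, with TAC NRG, TAC saline and sham saline from left to right, 5 libraries each; points carry the replicate number and lines give the group mean. Timp1 spans 3.35 CPM in a sham library to 336 CPM in TAC NRG 3, and Mmp14 splits the TAC NRG libraries into 3 between 14.4 and 29.4 CPM and 2 at 4.41 and 4.64 CPM.

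Under constriction, NRG1 moved none of the 9 genes past the threshold (TAC NRG against TAC saline), where limma called 1.3% of all tested genes, 0.672% higher and 0.626% lower. The 143 genes called became 39 without TAC NRG 4 and 5 together and 58 without TAC NRG 4, and none of the 9 was among them in either case. At an unadjusted p under 0.05, limma returned 2 of the 9, Timp1 and Loxl1, against 15.3% of all tested genes, and the groups overlapped in all 9. Over all tested genes, 1.81% lay without overlap above TAC saline and 1.25% below it. The median log2 fold change of the 9 was 0.29, and that of all tested genes was -0.01. The median of the 9 was 0.14 without TAC NRG 3 and 0.13 without TAC NRG 4, and with TAC saline 3 left out it was 0.19. The estimates were above 0 for 7 genes and below 0 for Mmp2 and Mmp14, as 49.2% of all tested genes were above 0.

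Timp1 had the highest estimate of the 9 under NRG1. It was at 85.0, 43.2, 336, 77.3 and 51.9 CPM in TAC NRG libraries, against 36.0, 21.1, 11.9, 51.1 and 59.5 CPM in TAC saline libraries. TAC NRG 3 stood far above every other library, and TAC saline 4 and 5 lay among the lower TAC NRG libraries. The log2 difference was 1.50 ± 0.40, or 2.82-fold with a 95% interval of 1.59 to 5.01, and ranked 6 of 11018 (unadjusted p = 0.000997, limma adjusted p = 0.0621). It passed the threshold without TAC NRG 2 (limma adjusted p = 0.0252) or without TAC saline 5 (limma adjusted p = 0.0379), and the value was 1.01 without TAC NRG 3 (limma adjusted p = 0.0886). The side of the threshold on which Timp1 fell therefore turned on single libraries.

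None of the lysyl oxidases passed the threshold between TAC NRG and TAC saline, and Loxl1 had an unadjusted p of 0.0365 in limma. Lox was at 16.7, 9.83, 49.5, 23.0 and 13.9 CPM in TAC NRG libraries, against 6.41 to 22.0 CPM in TAC saline libraries, with a log2 difference of 0.55 (95% interval -0.14 to 1.25, limma adjusted p = 0.452). Without TAC NRG 3, the library at 49.5 CPM, that difference was 0.21. Loxl2 was at 19.2, 12.1, 34.8, 17.0 and 13.5 CPM in TAC NRG libraries, against 8.83 to 19.1 CPM in TAC saline libraries, with a log2 difference of 0.38 (95% interval -0.13 to 0.88, limma adjusted p = 0.491). Only TAC NRG 1 and 3 lay above the whole TAC saline range of this gene. Loxl1 was at 87.5, 80.6, 129, 102 and 82.9 CPM in TAC NRG libraries, against 60.1 to 98.5 CPM in TAC saline libraries, with a log2 difference of 0.29 (95% interval 0.02 to 0.56, limma adjusted p = 0.294). Loxl3 was at 5.11, 4.09, 7.77, 17.0 and 6.41 CPM in TAC NRG libraries, against 2.60 to 9.77 CPM in TAC saline libraries, with a log2 difference of 0.44 (95% interval -0.30 to 1.19, limma adjusted p = 0.599). TAC NRG 4 was the high library here, and it is among the shallowest.

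The maturation genes and Mmp2 had the estimates nearest 0. Adamts2 was at 38.3, 34.4, 52.9, 43.9 and 21.9 CPM in TAC NRG libraries, against 17.5 to 44.6 CPM in TAC saline libraries (log2 0.11, 95% interval -0.33 to 0.55, limma adjusted p = 0.850). Pcolce was at 110.4, 87.6, 137, 118 and 85.1 CPM in TAC NRG libraries, against 75.0 to 131 CPM in TAC saline libraries (log2 0.09, 95% interval -0.22 to 0.40, limma adjusted p = 0.815). Mmp2 was at 50.7, 56.8, 49.0, 59.2 and 57.7 CPM in TAC NRG libraries, against 47.0 to 79.7 CPM in TAC saline libraries (log2 -0.06, 95% interval -0.30 to 0.19, limma adjusted p = 0.865). Mmp2 was also the most uniform of the 9 within TAC NRG, with a coefficient of variation of 8.26%. For these 3 genes, Loxl1 and Loxl2 the intervals lie within 1 log2 unit of 0, whereas those for Lox, Loxl3, Timp1 and Mmp14 reach beyond it.

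Mmp14 divided the TAC NRG group. It was at 18.1, 14.4, 29.4, 4.41 and 4.64 CPM in TAC NRG libraries, against 23.3, 13.1, 12.3, 22.6 and 17.9 CPM in TAC saline libraries. Libraries 4 and 5 of TAC NRG, which held 9 and 10 reads of the gene, were below every sham library, and libraries 1 to 3 were within or above the TAC saline range. The log2 difference from TAC saline was -0.66 ± 0.36 (limma adjusted p = 0.401), and without libraries 4 and 5 it was 0.19 (limma adjusted p = 0.869). Those libraries stood apart across the transcriptome too, and the part of depth or of that deviation in the low Mmp14 reads was not tested. Haemoglobin transcripts were 0.366% and 0.350% of reads in them, against 0.189 to 0.222% in the other TAC NRG, 0.107 to 0.161% in TAC saline and 0.0888 to 0.221% in sham saline libraries.

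Set against sham surgery, TAC NRG ventricles had 8 of the 9 genes raised and 0 lowered, while 8.74% of all tested genes rose, 7.39% fell and 16.1% were called in either direction. All 8 were separate from sham with no overlap, as were 6.23% of tested genes in the upward direction. The gap was narrow for Loxl3, with 4.09 CPM in its lowest TAC NRG and 4.04 CPM in its highest sham saline library. For Adamts2 these values were 21.9 and 20.5 CPM. The comparison shares its sham libraries with TAC saline against sham, and the values stand side by side here. Timp1 was 20.8-fold higher (log2 4.38, 95% interval of the fold 11.7 to 36.9, limma adjusted p = 6.68e-08), ranked 2 of 11018, against 7.38-fold in TAC saline. Lox was 5.51-fold higher in TAC NRG and 3.76-fold higher in TAC saline, each against sham. Loxl2 was 3.40-fold and 2.62-fold higher, Loxl1 2.40-fold and 1.97-fold, Adamts2 2.14-fold and 1.99-fold, Pcolce 2.10-fold and 1.97-fold, and Mmp2 1.43-fold and 1.49-fold higher in TAC NRG and in TAC saline. Loxl3 rose 2.77-fold in TAC NRG (limma adjusted p = 0.00622), although without TAC NRG 4 and 5 it was 1.10 on the log2 scale and did not pass (limma adjusted p = 0.0579). Mmp14 differed from sham by 0.13 on the log2 scale (limma adjusted p = 0.862), and without those libraries by 0.98, which passed (limma adjusted p = 0.00844).

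**Figure D2:**
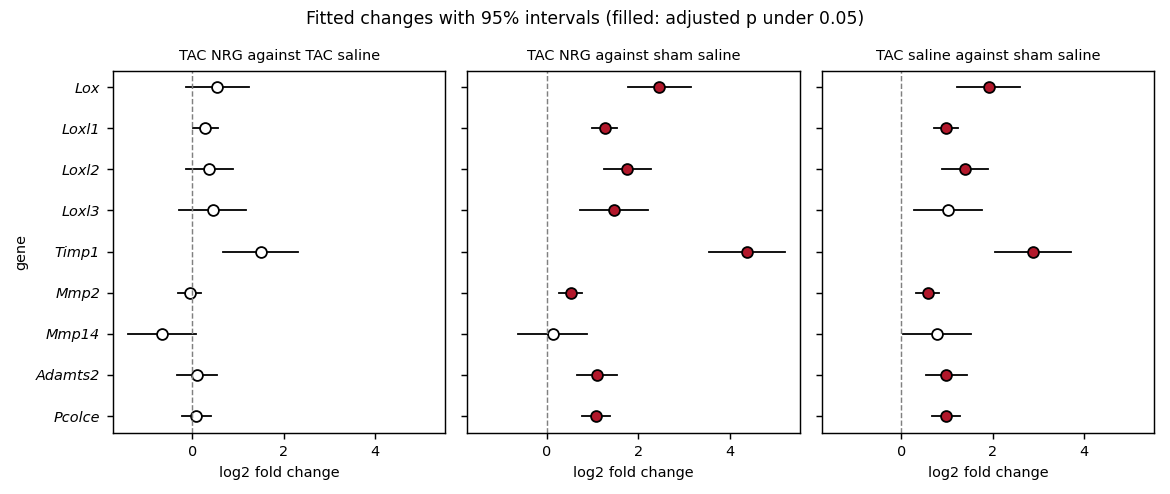
Fitted log2 fold change of each gene with its 95% interval in the 3 comparisons; filled points passed an adjusted p of 0.05 in limma. In TAC NRG against TAC saline no point is filled and Timp1 lies farthest right at 1.50, whereas against sham saline 8 points are filled for TAC NRG and 7 for TAC saline.

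The ratio of Timp1 to Mmp2 transcripts was higher in constricted ventricles. It says nothing of all inhibitors together, since the other 4 inhibitor genes in the files summed to 247 ± 29.4 CPM in TAC NRG, 263.5 ± 37.3 CPM in TAC saline and 252 ± 26.5 CPM in sham saline libraries (SD, n = 5 each). These ratios were chosen after the data were seen and are a description with no test. Within each library, the ratio of Timp1 to Mmp2 reads was 1.68, 0.76, 6.84, 1.31 and 0.90 in TAC NRG, 0.77, 0.40, 0.24, 0.64 and 1.02 in TAC saline, and 0.15, 0.11, 0.10, 0.11 and 0.09 in sham saline libraries. Every constricted library was above every sham library, as for Timp1 alone, and TAC NRG and TAC saline overlapped. How many pairs of tested genes separate from sham in such a ratio was not counted. Timp1 to Mmp14 was 9.57 ± 5.83 in TAC NRG, 1.94 ± 0.90 in TAC saline and 0.43 ± 0.10 in sham saline libraries (SD, n = 5 each), and the TAC NRG mean includes the libraries with low Mmp14. Mmp14 to Mmp2 was 0.27 ± 0.22 in TAC NRG, 0.32 ± 0.10 in TAC saline and 0.27 ± 0.05 in sham saline libraries, with overlapping ranges. Timp1 to Timp2, another member of the inhibitor family, was 1.05 ± 0.94 in TAC NRG, 0.30 ± 0.14 in TAC saline and 0.05 ± 0.01 in sham saline libraries (SD, n = 5 each).

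Relative to Col1a1, the main chain of type I collagen and a substrate of lysyl oxidases, the genes differed in their ratios. Col1a1 itself rose 3.24-fold with constriction, so any gene that rose less has a lower ratio to it than in sham. Loxl1 to Col1a1 was 0.51 ± 0.08 in TAC NRG, 0.51 ± 0.11 in TAC saline and 0.84 ± 0.08 in sham saline libraries, with every constricted library below every sham library. Pcolce to Col1a1 was 0.57 ± 0.09, 0.66 ± 0.13 and 1.07 ± 0.14, and Adamts2 to Col1a1 was 0.20 ± 0.04, 0.22 ± 0.02 and 0.36 ± 0.02, in TAC NRG, TAC saline and sham saline libraries, also with no overlap with sham (SD, n = 5 each). Mmp2 to Col1a1 was 0.31 ± 0.10 in TAC NRG, 0.39 ± 0.13 in TAC saline and 0.81 ± 0.07 in sham saline libraries. Lox, in contrast, kept a ratio of 0.11 ± 0.03 in TAC NRG, 0.09 ± 0.01 in TAC saline and 0.08 ± 0.03 in sham saline libraries, with overlapping ranges. Timp1 to Col1a1 ran the other way, at 0.51 ± 0.28 in TAC NRG, 0.21 ± 0.06 in TAC saline and 0.09 ± 0.02 in sham saline libraries, and its 3 ranges were separate (0.30 to 1.00, 0.14 to 0.29, and 0.07 to 0.11). The lowest TAC NRG ratio was 0.304 and the highest TAC saline ratio 0.293, a narrow gap, while the Timp1 levels of these groups overlapped. Loxl2 to Col1a1 was 0.10 ± 0.01 in TAC NRG, 0.09 ± 0.01 in TAC saline and 0.11 ± 0.02 in sham saline libraries, and Loxl3 to Col1a1 was 0.04 ± 0.03, 0.03 ± 0.01 and 0.06 ± 0.02 in the same groups, each with overlapping ranges. Mmp14 to Col1a1 was 0.07 ± 0.04 in TAC NRG, 0.11 ± 0.02 in TAC saline and 0.21 ± 0.03 in sham saline libraries, with every constricted library below every sham library. These ratios are to Col1a1 alone, were chosen after the data were seen and carry no test. How many of all tested genes separate from sham in such a ratio was not counted. The same holds for TAC NRG against TAC saline, so the gap for Timp1 is not read as an effect of NRG1.

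**Figure D3:**
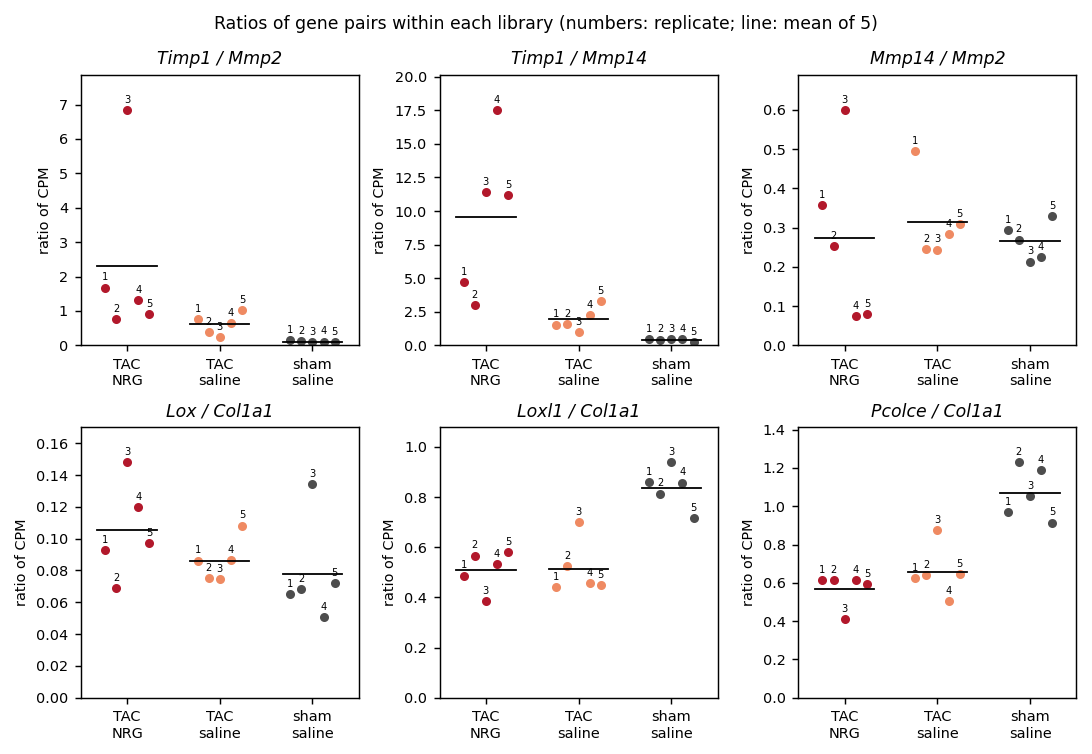
Ratio of reads of 2 genes within each library, with TAC NRG, TAC saline and sham saline from left to right on linear axes that start at 0; points carry the replicate number and lines give the mean of 5 libraries. Timp1 to Mmp2 is 0.09 to 0.15 in sham libraries and 0.24 to 6.84 in constricted ones, while Loxl1 to Col1a1 and Pcolce to Col1a1 are highest in sham libraries.

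Single libraries were high or low for many of the 9 genes at once. TAC NRG 3 had the highest level of its group in 7 genes, TAC saline 3 the lowest of its group in 8 genes, and sham saline 3 the lowest of its group in 7 genes. TAC saline 3 was the library closest to sham, and the summed level of the 9 genes was 245 CPM in it, against 296 to 450 CPM in the other TAC saline and 144 to 191 CPM in sham saline libraries. In TAC NRG 3 the sum was 825 CPM, against 338 to 461 CPM in the other TAC NRG libraries. Over the 36 pairs of genes, Pearson's r of log2 levels across the 15 libraries had a median of 0.80 and a range of 0.02 to 0.98. With the group means removed the median was 0.59, from -0.16 to 0.92, so most pairs varied together inside groups as well. Loxl1 and Timp1 were the closest pair, at 0.98 across libraries and 0.92 within groups. Mmp2 had lower r within groups, from -0.09 with Mmp14 and 0.05 with Lox to 0.50 with Loxl3. Mmp14 ranged from -0.16 with Loxl3 to 0.62 with Loxl2 within groups, and was at 0.60 with Timp1. These values describe points that share library and scaling and carry no test.

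**Figure D4:**
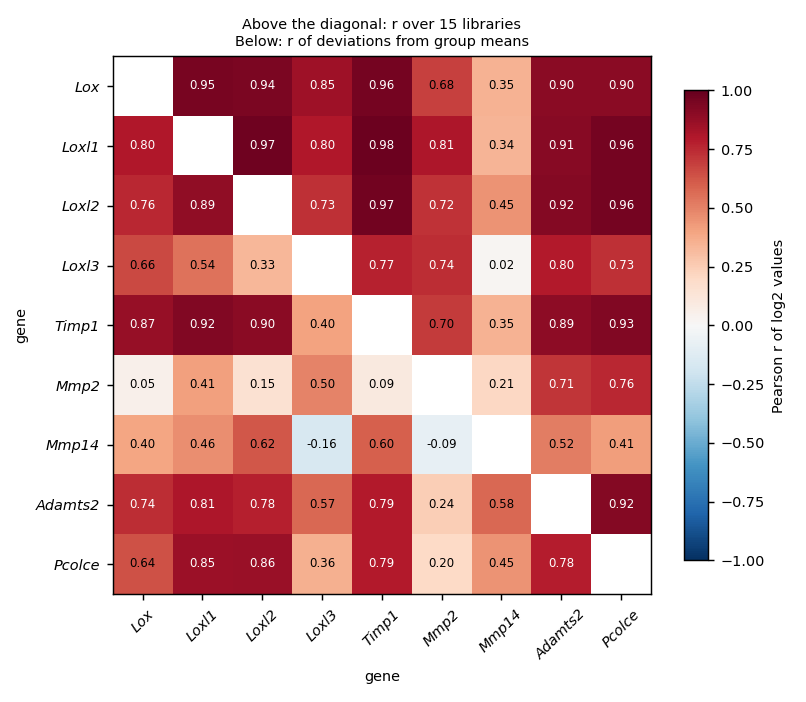
Pearson's r between log2 levels of each pair of genes, across 15 libraries above the diagonal and for deviations from group means below it. Red cells are positive and blue cells negative; the Lox, Loxl1, Loxl2, Timp1, Adamts2 and Pcolce cells are red on both sides, and the Mmp2 cells are paler below the diagonal than above it, except that with Mmp14, which is blue.

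Among all other tested genes, the patterns most like that of Timp1 over the 15 libraries were those of Thbs4 (r = 0.98), a matricellular thrombospondin, Col5a2 (0.98), a chain of type V collagen, and Mfap5 (0.98), a microfibril protein. Lox was closest to Nmrk2 (0.97), a kinase of NAD synthesis in muscle, Col5a2 (0.97) and Col1a2 (0.96). Loxl2 was closest to Col1a1, Mfap5 and Col1a2 (0.98 each), and Pcolce to Igfbp7, Col1a2 and Bgn (0.98 each). Mmp2 was closest to Tmem176b (0.90), Nbl1 (0.89) and Mfap4 (0.86), none of them a collagen. Within groups r was 0.90 for Timp1 with Thbs4 and 0.96 for Timp1 with Col5a2, whereas it was 0.67 for Mmp2 with Tmem176b. Thbs4 was at 66.7 ± 31.7 CPM in TAC NRG, 30.2 ± 13.6 CPM in TAC saline and 7.96 ± 1.73 CPM in sham saline libraries (SD, n = 5 each), the same order of groups as Timp1.

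The substrates and partner enzymes were followed in lists of related genes. Of 7 tested fibrillar collagens, 6 rose and 0 fell with constriction, with a median log2 fold change of 1.42. Col3a1 rose by 1.74, Col5a2 by 1.73, Col1a1 by 1.70 and Col5a1 by 1.42, each on the log2 scale. Of 12 elastic fibre genes, which include substrates of LOX and LOXL1, 8 rose and 0 fell, with a median of 0.87. Mfap5 rose by 1.64, Mfap4 by 1.49, Fbn1 (fibrillin-1) by 1.47 and Eln (elastin) by 1.13. Of 17 collagen modification and folding genes 5 rose, with a median of 0.35. They were Fkbp10 at 0.81, Serpinh1 at 0.53, Crtap at 0.48 and P4hb at 0.35, which act on collagen inside the cell, and Tgm2 at 0.50, a transglutaminase that crosslinks matrix proteins outside it. All of these lists are set against 6.47% of tested genes that rose and a median of -0.01 over all tested genes, and called values are from limma at an adjusted p under 0.05.

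Other protease control genes were called in part, and their counts stand against 6.47% of all tested genes that rose with constriction. Of 4 tested inhibitors besides Timp1, only Timp2 rose with constriction, by 0.42 (limma adjusted p = 0.0218), and Timp4 was at -0.56 (limma adjusted p = 0.163). Timp4, an inhibitor known for its expression in heart, was at 20.3 ± 6.05 CPM in TAC NRG, 23.6 ± 8.24 CPM in TAC saline and 33.4 ± 9.37 CPM in sham saline libraries (SD, n = 5 each), and fell in TAC NRG against sham by 0.74 (limma adjusted p = 0.0439). Of 12 other metalloproteinase genes in the files only 3 had enough reads to be tested, and Mmp23 alone rose, by 0.85 on the log2 scale. Mmp9, the other gelatinase, summed to 8 reads in TAC NRG, 10 reads in TAC saline and 21 reads in sham saline libraries and was not tested. Of 11 other ADAMTS and ADAMTS-like genes, Adamtsl2 rose by 1.24, Adamts9 by 0.75 and Adamtsl5 by 0.49. Of 3 tested plasminogen activation genes, Plat, which encodes tissue plasminogen activator, rose by 0.61, and Serpine2, a protease inhibitor, by 0.51.

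In TAC NRG against TAC saline, 1 gene over all 8 lists passed the threshold in limma, where 1.3% of all tested genes did. The lists held 7, 12, 17, 3, 3, 4, 11 and 3 tested genes, so 1 call is near that share. The gene called was the membrane-type metalloproteinase Mmp15. It was at 39.5 ± 8.20 CPM in TAC NRG, 56.4 ± 6.79 CPM in TAC saline and 61.9 ± 6.25 CPM in sham saline libraries (SD, n = 5 each). Mmp15 fell by 0.53 on the log2 scale (limma adjusted p = 0.0264), although TAC NRG and TAC saline libraries overlapped. The median log2 fold change was 0.23 for fibrillar collagens, 0.02 for elastic fibre genes and 0.07 for collagen modification and folding enzymes. In TAC NRG against sham, 7 of 7 fibrillar collagens and 10 of 17 modification and folding enzymes rose, against 8.74% of all tested genes, and the elastic fibre genes Efemp1 and Fbln1 fell by 0.95 and 0.51, while 8 others of that list rose. Bmp1, which had risen in TAC saline, was at 24.5 ± 3.06 CPM in TAC NRG and 31.7 ± 3.17 CPM in TAC saline libraries (SD, n = 5 each), with a log2 difference of -0.37 (limma adjusted p = 0.119).

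**Figure D5:**
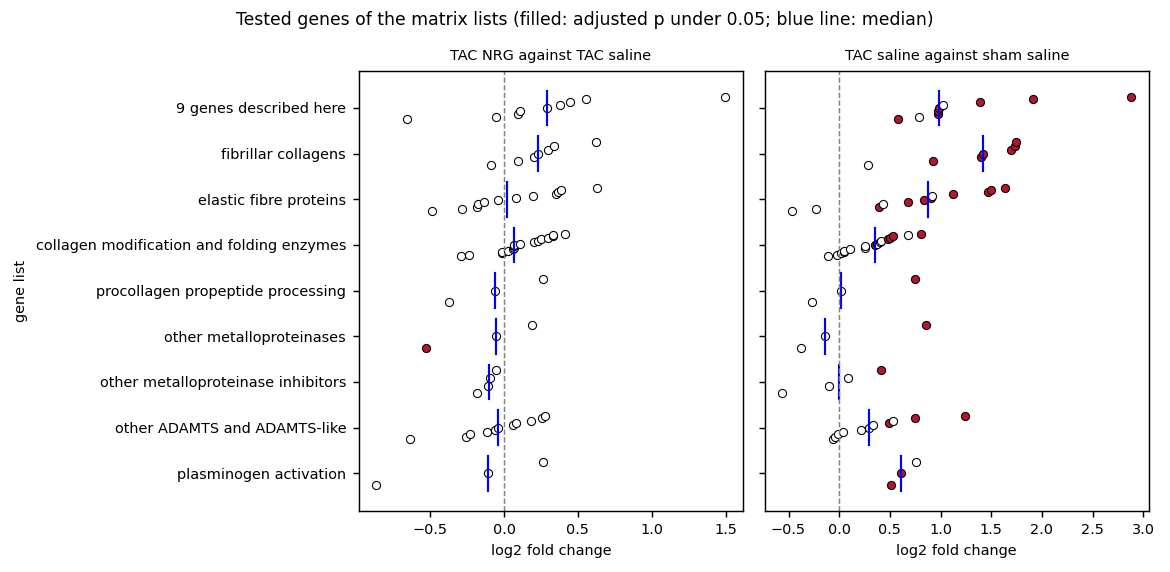
Log2 fold change of every tested gene of the 9 described here and of 8 related lists, for TAC NRG against TAC saline and TAC saline against sham saline; filled points passed an adjusted p of 0.05 in limma and blue lines are medians. Filled points are frequent among the 9 genes, fibrillar collagens and elastic fibre proteins under constriction, and Mmp15 is the only filled point under NRG1.

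Markers of cell types moved with the same groups in part. The summed level of 6 fibroblast markers was 962 to 1191 CPM in TAC NRG, 908 to 1187 CPM in TAC saline and 807 to 837 CPM in sham saline libraries. With constriction 3 of the 6 rose, against 6.47% of all tested genes. Lum rose by 1.11, Col15a1 by 1.18 and Tcf21 by 0.61 on the log2 scale. Pdgfra, a receptor that marks resident fibroblasts, was at 0.04, the lowest of the 6 (limma adjusted p = 0.909). Relative to Pdgfra, Lox was 1.23 ± 0.72 in TAC NRG, 0.84 ± 0.43 in TAC saline and 0.21 ± 0.06 in sham saline libraries, and Timp1 was 6.35 ± 5.81, 2.11 ± 1.28 and 0.26 ± 0.08 in the same groups (SD, n = 5 each). For Lox and Timp1, and likewise Loxl2, every constricted library was above every sham library in this ratio. For Loxl1, Pcolce and Mmp2 the ranges of TAC saline and sham saline overlapped (3.03 to 5.99 and 1.58 to 3.41 for Loxl1, 3.69 to 8.61 and 1.77 to 5.16 for Pcolce, and 2.41 to 3.82 and 1.54 to 3.11 for Mmp2). The summed level of 6 macrophage markers was 162 to 285 CPM in TAC NRG, 189 to 307 CPM in TAC saline and 156 to 225 CPM in sham saline libraries, and 4 of the 6 rose with constriction, against 6.47% of all tested genes. The 4 smooth muscle and myofibroblast markers summed to 197 to 369 CPM in TAC NRG, 207 to 305 CPM in TAC saline and 134 to 277 CPM in sham saline libraries. With constriction 0 of the 4 rose in limma. At an unadjusted p under 0.05, limma returned 3 of the 4, against 2662 of all 11018 tested genes. The 5 endothelial markers summed to 388 to 455 CPM in TAC NRG, 469 to 546 CPM in TAC saline and 436 to 477 CPM in sham saline libraries, and of these Cdh5 fell in TAC NRG against TAC saline, by 0.43 on the log2 scale (limma adjusted p = 0.0157). The 5 pericyte markers summed to 402 to 441 CPM in TAC NRG, 409 to 521 CPM in TAC saline and 472 to 579 CPM in sham saline libraries. Of the fibroblast markers, ratios were taken to Pdgfra alone, were chosen after the data were seen and carry no test. How many of all tested genes separate from sham in a ratio to Pdgfra was not counted. Lum and Col15a1 rose more on the log2 scale than Loxl1, Pcolce and Mmp2 did, so ratios to them would differ. The part of cell numbers in the changes of the 9 genes was not tested.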

How the data were processed

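Total RNA from frozen left ventricle was made into 3′-end BRB-seq libraries, per the labels' protocols, in 1 batch of 15. The genome build was GRCm39 per the submitters' processing notes. The aligner, counter and annotation were not given in the sources used here. Spacing of the deposited values shows that the authors added 0.5 to each read count, multiplied by a factor per library and took log2. Undoing the factor gave values within 0.05 of a whole read for 98.9 to 99.5% of values per library. Printed CPM are 2 to the power of the deposited log2 value, over 1000. Whole reads set the filter, which kept genes with at least 2.95 reads per M (10 reads in the median library) in 5 or more libraries and 15 reads in total. Chi-square per degree of freedom between libraries of a group was 2.16 to 10.9, so no 2 libraries of a group were duplicates.

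A linear model (limma 3.58.1, R 4.3.3) that lets the spread depend on level was fitted to the log2 values of all 15 libraries with no covariate. P-values are two-sided with Benjamini-Hochberg adjustment over 11018 genes, and the threshold was 0.05. The fit was tested on simulated data. A log2 fold change is on the scale with 0.5 reads added, which understates changes of low genes. A range of values marked as a 95% interval comes from this fit. The 9 genes and the lists of related genes were chosen with earlier results of these data known, so no list was tested and none is independent support. Of each related list, up to 5 genes past the threshold with the greatest change under constriction are named, with any called under NRG1. For 5 of the 9 genes the 3 other genes of highest r are named, predicted genes left out. Overlapping genes were read from GENCODE vM21 (GRCm38) and upstream sequence from the RefSeq table of GRCm38.p6. Alternatives covered scaling, filter, pseudocount, depth, spread, groups in the fit, replicate number, threshold and libraries left out. Tables and figures used Python 3.11.15, pandas 2.3.3, numpy 2.4.6 and matplotlib 3.10.9.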

Additional observations from a re-analysis of the deposited data

Results flagged for a closer look

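Each of the 27 sets of 5 libraries (9 genes in 3 groups) was searched for a library far from the others of its group. The search used CPM, not log2 values, and flagged 2 of the 27 sets. Chance gives about 1 in 20 if values are normally spread, which was not checked for CPM, so 2 of 27 is little more than that. Timp1 was at 335.6 CPM in TAC NRG 3 and at 43.2 to 85.0 CPM in the other 4 TAC NRG libraries. Loxl3 was at 16.95 CPM in TAC NRG 4 and at 4.09 to 7.77 CPM in the other 4, with 36 reads in that library, which was the shallowest of the 15. The cause of either value was not tested.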

How the results depend on the processing

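All 9 genes kept the direction of their change in TAC saline against sham saline under 28 alternatives (27 for Loxl3, which the filter of 10 CPM left out), and in TAC NRG against sham the same held except for Mmp14. Over genes, comparisons and alternatives, 731 values kept their direction and side of the threshold, 12 passed it where the reported value did not, 1 no longer passed, and 9 reversed. Every reversal was of a value that had not passed. For TAC NRG against TAC saline, leaving out single libraries gave -0.1313 to 0.2958 for Adamts2, -0.007865 to 0.1946 for Pcolce and -0.1234 to 0.06735 for Mmp2, and Mmp14 was 0.1925 without TAC NRG 4 and 5. For TAC NRG against sham, Mmp14 was -0.01296 with reads thinned to the shallowest library and -0.2267 to 0.4576 with single libraries left out. The number of the 9 genes called under NRG1 was 0 to 1 with single libraries left out.

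Counts of all genes called moved more. For TAC saline against sham, 1180 became 726 without a trend of spread, 505 at a threshold of 0.01, and 636 to 1495 with single libraries left out (636 without TAC saline 5, 708 without TAC saline 1). For TAC NRG against TAC saline, 143 became 40 without a trend, 77 with only those groups in the fit, 39 without TAC NRG 4 and 5 together, 39 at 0.01, and 58 to 229 with single libraries left out (58 without TAC NRG 4, 77 without TAC NRG 5, 78, 92 and 93 without TAC saline 1, 4 and 5, and 229 without TAC NRG 2). For TAC NRG against sham, 1777 became 849 at 0.01. With total reads as the only scaling, 84.9% of calls were higher in TAC saline than in sham, against 60.4% on the authors' scale, as the median of all genes shifted to 0.10. In TAC NRG against sham the shares were 75.9% and 54.2%, and in TAC NRG against TAC saline 44.0% and 51.7%, with 32.6% under nuclear reads and 41.0% under quantile scaling.

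With the replicate block, 1049, 111 and 1645 genes were called in TAC saline against sham, TAC NRG against TAC saline and TAC NRG against sham, and 7, 0 and 8 of the 9. Same-numbered libraries did not deviate together (r of -0.25 to 0.08 over 15 pairs), so the numbers were not taken to pair libraries. In 4 of the 15 pairs the same number was the closest, among them every pair of libraries numbered 1. Depth limits Lox, Loxl3, Mmp14 and Timp1, which had 8, 5, 9 and 10 reads in their lowest libraries. The causes of these shifts were not tested.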
